A study of Mus musculus with 38 samples.

Results

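Receptors that guide T cells into tissues were followed across 5 mouse CD8 T cell clones in 2 states. The 9 genes are Ccr2, Ccr4, Ccr7, Ccr8, Cxcr3, Cxcr4 and Cxcr6, which encode chemokine receptors, Gpr15, which encodes a chemoattractant receptor, and Gpr183, which encodes a receptor for oxysterols. They were chosen by gene symbol, with earlier results of these data known. Each has 1 probe set, and the 9 stand among 19938 genes that the tested probe sets represent. The tested probe sets number 23410.

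Activated cells had lain for 14 h on plates coated with 0.5 ug/ml of the anti-CD3 antibody 145-2c11, and dormant cells were resting. The clones sAg1 and sAg3 carry the label CD8IL13+ and are called IL13+ here. The clones 8uvmo-2 and 8uvmo-3 carry the label CD8IL13- and are called IL13-negative here (the design text calls their kind Tc1). CD8bm1 is an alloreactive conventional clone, labelled allo CD8. Each clone is 1 line, so a phenotype is represented by 2 clones or, for the alloreactive one, by 1. Of the 10 groups, 8 held 4 arrays, while dormant sAg1 and dormant sAg3 held 3 each. All cells were grown in RPMI medium with serum. Nothing in the labels ties the arrays of a group to separate cultures, so every p-value rests on array-to-array spread that may be technical.

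Chemokine receptors are G protein-coupled receptors at the cell surface. Their ligands are small secreted proteins held in gradients on vessels and in tissue, and binding leads to integrin activation and directed movement. Naive and central memory T cells use CCR7 to enter lymph nodes, while effector cells use receptors such as CXCR3 and CCR2 for inflamed tissue. CCR4 and CCR8 are known from type 2 and skin-homing T cells, CXCR6 from tissue-resident T cells, and GPR15 from T cells that enter the large intestine. CXCR4 binds CXCL12 in bone marrow, and GPR183 leads lymphocytes along oxysterol gradients.

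Promoter windows were examined because Ccr2, Cxcr3 and Cxcr4 moved together with activation, while Ccr8 separated the phenotypes. The windows come from RefSeq on GRCm38.p6 and run from 250 bases before to 50 bases after the annotated gene start. Windows were at hand for 8 of the 9 genes, and that of Ccr7 was not used here. Each of 4 motifs was searched on both strands. The core bound by NFAT factors, which act downstream of the T cell receptor, was searched as GGAAA. The box bound by KLF factors, known regulators of lymphocyte trafficking, was searched as CACCC. The AP-1 motif, which many activation genes carry, was searched as TGANTCA. Factors of the GATA family, among them the type 2 regulator GATA3, were represented by AGATAA and also, as the other allowed form, by TGATAA. Capitals below mark any match, on either strand, and no matches of different motifs overlapped in the 8 windows. The sequences are written 5′ to 3′ on the strand of the gene.
Ccr2 (chr9:124101933-124102232, plus strand): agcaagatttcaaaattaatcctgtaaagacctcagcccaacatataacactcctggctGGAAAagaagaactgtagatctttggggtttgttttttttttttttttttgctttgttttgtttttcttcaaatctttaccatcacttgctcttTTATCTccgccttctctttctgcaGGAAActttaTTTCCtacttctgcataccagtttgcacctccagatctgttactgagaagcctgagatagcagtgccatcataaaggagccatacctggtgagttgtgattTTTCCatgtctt
Cxcr3 (chrX:101734098-101734397, minus strand): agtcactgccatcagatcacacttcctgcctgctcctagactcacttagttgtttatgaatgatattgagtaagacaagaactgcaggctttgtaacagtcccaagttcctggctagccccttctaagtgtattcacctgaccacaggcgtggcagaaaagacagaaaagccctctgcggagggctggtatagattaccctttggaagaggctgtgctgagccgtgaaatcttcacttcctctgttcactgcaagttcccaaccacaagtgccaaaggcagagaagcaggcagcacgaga
Cxcr4 (chr1:128592250-128592549, minus strand): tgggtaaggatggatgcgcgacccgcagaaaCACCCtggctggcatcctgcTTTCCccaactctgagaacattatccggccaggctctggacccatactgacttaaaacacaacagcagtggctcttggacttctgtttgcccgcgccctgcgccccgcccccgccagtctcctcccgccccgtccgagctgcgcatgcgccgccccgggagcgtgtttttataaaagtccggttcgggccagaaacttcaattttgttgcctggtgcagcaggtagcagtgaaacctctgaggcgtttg
Ccr8 (chr9:120091883-120092182, plus strand): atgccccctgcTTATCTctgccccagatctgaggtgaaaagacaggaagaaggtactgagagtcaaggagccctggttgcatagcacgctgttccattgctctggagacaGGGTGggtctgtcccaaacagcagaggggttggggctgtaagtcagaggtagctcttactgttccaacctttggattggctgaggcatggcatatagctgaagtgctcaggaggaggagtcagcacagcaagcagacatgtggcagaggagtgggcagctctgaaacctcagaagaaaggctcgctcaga

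The Ccr2 window held 4 matches of GGAAA and 1 GATA match. The Cxcr4 window held 1 match each of GGAAA and CACCC, and the Ccr8 window 1 match each of CACCC and a GATA letter string. None of the 4 motifs was found in the Cxcr3 window. Among all 32851 promoter windows of the same length, GGAAA was found in 61.3%, CACCC in 57.5%, a GATA match in 18.6% and TGANTCA in 7.81%. TGANTCA occurred in 2 receptor windows, those of Ccr4 and Gpr15. These matches describe letters in the windows and say nothing of binding. Ccr2, Ccr4, Ccr8 and Cxcr6 share chromosome 9, where the starts of Ccr2 and Cxcr6 lie 296 kb apart.

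The values are log2 probe set summaries, and the number of arrays limits their precision. Arrays of 1 group correlated with r between 0.986 and 0.998. Dormant 8uvmo-2 arrays fell into 2 sets, namely replicates 1 and 3, and replicates 2 and 4, with r = 0.997 within each set and 0.986 to 0.989 across them. Leaving out either set moved none of the 45 receptor results for activation and between phenotypes across its threshold or in sign. Array medians over the tested probe sets were 7.01 to 7.09 in activated and 6.58 to 6.70 in dormant arrays. Probe set by probe set, the shift of activated against dormant means had a median of 0.35. Changes with activation are therefore given relative to array medians, and the values quoted per array are as deposited. Centring on array medians took the mean Ccr2 difference from -2.53 to -2.93. The shift depended on level: probe sets averaging 6 to 7 lay 0.51 higher in activated arrays, those averaging 8 to 9 lay 0.05 higher and those over 10 lay 0.07 lower. Values below 7 are treated as near background, although no background was measured. Levels of different genes come from different probes and were not compared. Of the CD8 T cell markers, 6 or 7 of 8 averaged at least 7 in every group. Il13, named in the phenotype labels, averaged 9.51 and 12.78 in activated sAg1 and sAg3, and 7.81, 6.52 and 6.59 in the activated clones 8uvmo-2, 8uvmo-3 and CD8bm1. In dormant arrays it averaged 6.24 in sAg1 and 10.29 in sAg3, against 6.04 to 6.21 in the other 3 clones.

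**Figure D1:**
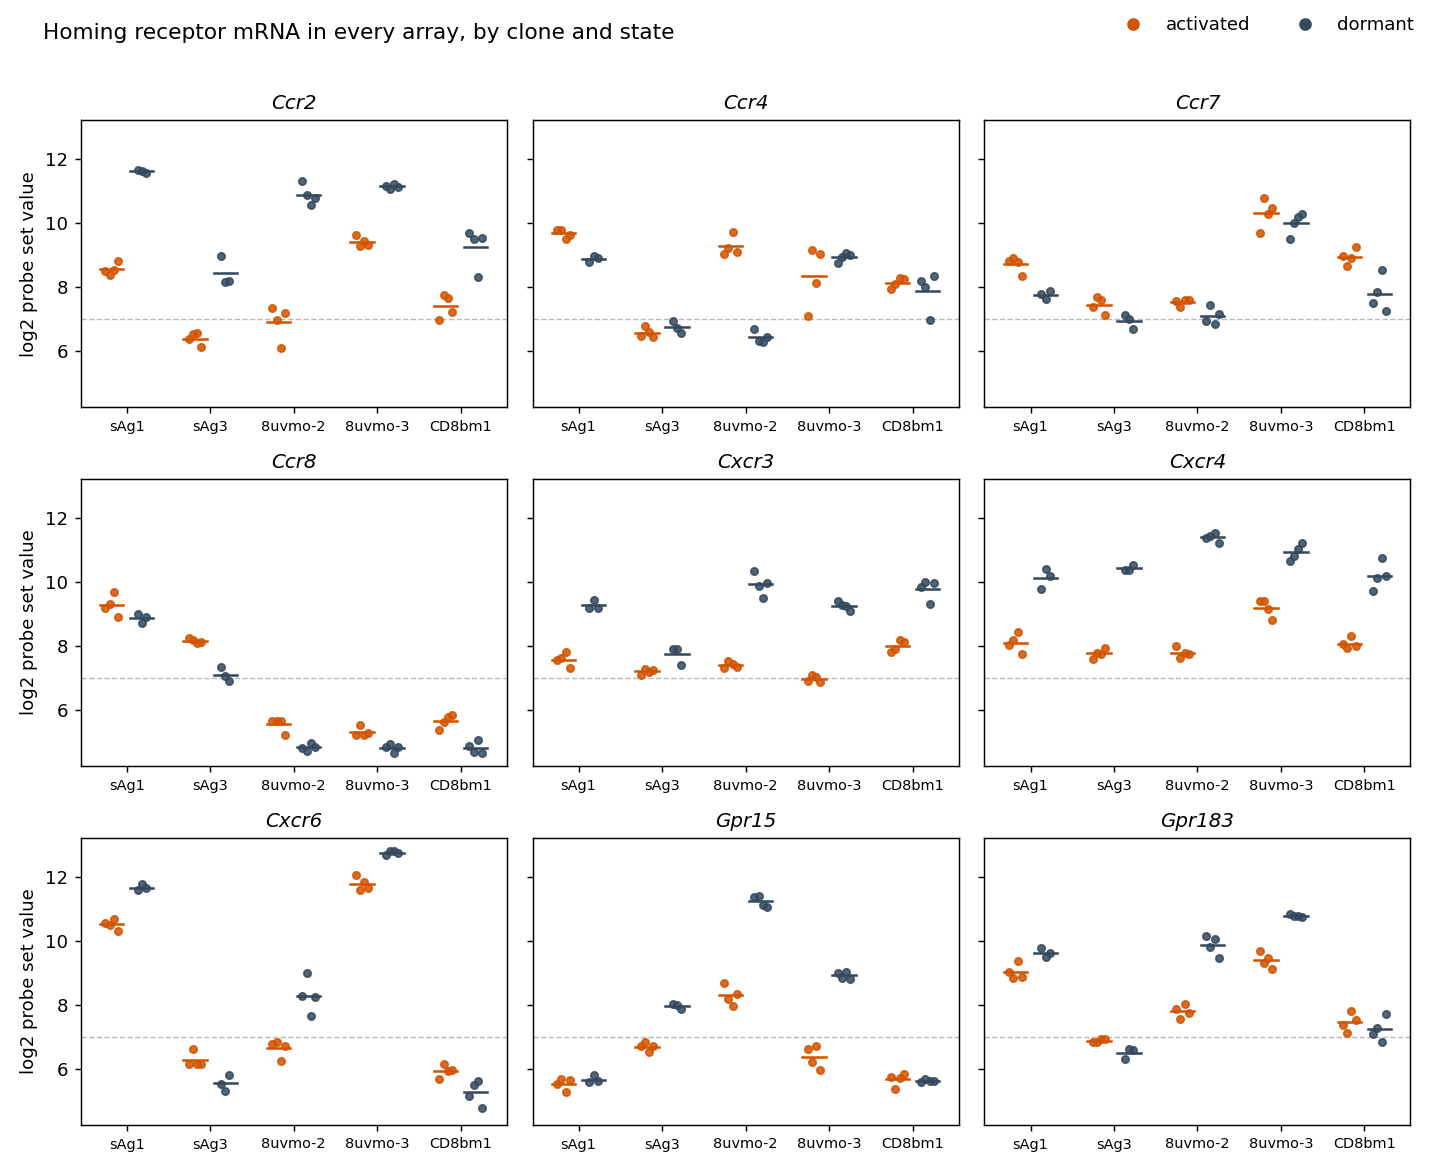
Deposited log2 value (vertical axis) of each receptor in every array, by clone; points are arrays, short lines are group means, and the dashed line marks 7. Activated arrays of Ccr2, Cxcr3 and Cxcr4 lie below dormant ones in all 5 clones, and Ccr8 is at 6.90 or higher in all sAg1 and sAg3 arrays, against 5.86 or lower in the other arrays.

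Averaged over the 5 clones, Ccr2, Cxcr4, Cxcr3, Gpr15 and Gpr183 fell with activation. A receptor was called when its limma contrast had a Benjamini-Hochberg adjusted p under 0.05 over all tested probe sets, a log2 difference of at least 1, and, for the mean over clones, 1 direction in all 5 clones. By this rule 5 of 9 receptors were lower in activated cells (5.56% of all tested probe sets were called lower) and 0 of 9 higher (1.06% of all tested). The SEs and the limma p-values rest on the spread between arrays of a group, not between clones, unless clone means are named as the replicates. With clone means as the replicates, 15256 of the 23410 tested probe sets had a limma adjusted p under 0.05 for activation. Where a group averages below 7, a difference from it is taken as a lower estimate, because such values are treated as near background. By the full rule 6.62% of all tested probe sets were called in either direction. At a limma adjusted p under 0.05 alone, 2 of 9 receptors were higher, Ccr7 and Ccr8, and 6 were lower. That threshold is passed by many probe sets, in sAg1 by 14730 of the 23410 tested. The median difference of the 9 receptors was -1.09, against -0.05 over all tested probe sets. On the deposited values 3 of the 5, Ccr2, Cxcr3 and Cxcr4, were called lower (1.64% of all tested called lower, 4.56% higher, 6.2% in either direction). Set against the median shift of probe sets within 0.5 of the same mean level, the differences were -2.53 for Ccr2, -2.41 for Cxcr4, -1.83 for Cxcr3, -1.75 for Gpr15 and -0.74 for Gpr183. For the receptors not called they were -0.52 for Cxcr6, 0.52 for Ccr4, 0.59 for Ccr7 and 0.18 for Ccr8. Fewer cells with a transcript and less transcript per cell cannot be told apart in bulk RNA.

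Cxcr4, the receptor for CXCL12, was lower in every activated group. In sAg1 its log2 values were 8.03, 8.19, 8.45 and 7.75 in activated arrays, against 9.79, 10.40 and 10.20 in dormant arrays. In sAg3 they were 7.58, 7.79, 7.76 and 7.94 in activated arrays, against 10.38, 10.37 and 10.52 in dormant arrays. No array of either state overlapped the other in these IL13+ clones. Activated 8uvmo-2 arrays had 7.99, 7.63, 7.78 and 7.76, against 11.37, 11.44, 11.52 and 11.23 in dormant ones. Activated 8uvmo-3 arrays had 9.39, 9.39, 9.15 and 8.81, against 10.65, 10.80, 11.03 and 11.23 in dormant ones. Here too the states stayed apart, with activated 8uvmo-3 the brightest of the activated groups. CD8bm1 gave 8.05, 7.94, 8.30 and 8.01 in activated arrays, against 9.71, 10.13, 10.74 and 10.18 in dormant arrays. The change averaged -2.83 ± 0.08 (SE over arrays), a 7.11-fold lower level (limma adjusted p = 1.53e-26), and ran from -4.0 in 8uvmo-2 to -2.13 in 8uvmo-3. Over the 5 clones these effects had an SE of 0.33, and with clone means as the replicates limma gave an adjusted p of 0.0128.

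Ccr2 binds CCL2 and related chemokines and is known from monocytes and effector T cells. It had the largest mean change of the 9 receptors, close to that of Cxcr4 (-2.83 ± 0.08), an order that was not tested. Its log2 values in sAg1 were 8.50, 8.37, 8.55 and 8.81 in activated arrays, against 11.65, 11.64 and 11.57 in dormant arrays. In sAg3 they were 6.38, 6.53, 6.56 and 6.12 in activated arrays, against 8.97, 8.17 and 8.18 in dormant arrays. Both clones separated fully, and activated sAg3 lay below 7 throughout. For 8uvmo-2 the activated arrays had 7.34, 6.98, 6.10 and 7.19, against 11.31, 10.88, 10.55 and 10.79 in dormant arrays. For 8uvmo-3 the activated arrays had 9.62, 9.30, 9.44 and 9.33, against 11.16, 11.06, 11.23 and 11.13 in dormant arrays. Activated 8uvmo-3 had the highest level of any activated group. For CD8bm1 the activated arrays had 6.99, 7.77, 7.65 and 7.24, against 9.69, 9.50, 8.31 and 9.55 in dormant arrays, where replicate 3 is the low one. The mean change was -2.93 ± 0.11 (SE over arrays), 7.64-fold lower (limma adjusted p = 1.93e-22). Activated sAg3 and 8uvmo-2 averaged 6.40 and 6.90, so the fold is a lower estimate. The SE over the 5 clone effects was 0.43, and the adjusted p was 0.0213 with clone means as the replicates in limma.

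Since Ccr2 is also a monocyte gene, macrophage markers are given beside it. Of 11 measured markers, 1 or 2 averaged at least 7 in any group, and their summed log2 level per array was 64.69 to 74.23 over activated groups and 61.38 to 71.56 over dormant groups. Csf1r, Adgre1, C1qa, C1qb and C1qc averaged below 7 in all 10 groups. Lyz2 had 8.40 in 1 activated sAg3 array and 7.11 in 1 activated sAg1 array, and 8.75, 9.08 and 9.94 in dormant sAg1; it was below 7 in all other arrays. Cd68 fell with activation by 1.83, and averaged 7.81 to 8.89 in activated groups and 9.14 to 10.33 in dormant groups. Itgam averaged 9.99 in dormant 8uvmo-2. Their part in the Ccr2 result was not tested.

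Cxcr3, the receptor for the interferon-induced chemokines CXCL9, CXCL10 and CXCL11, ended in a narrow band after activation. Its log2 values in activated sAg1 were 7.56, 7.62, 7.81 and 7.32, against 9.18, 9.44 and 9.19 in dormant sAg1. Activated sAg3 had 7.09, 7.29, 7.18 and 7.26, against 7.91, 7.90 and 7.41 in dormant sAg3. The states did not overlap, and dormant sAg3 was the lowest dormant group. Activated 8uvmo-2 had 7.32, 7.53, 7.45 and 7.33, against 10.33, 9.86, 9.51 and 9.98 in dormant 8uvmo-2. Activated 8uvmo-3 had 6.92, 7.08, 7.02 and 6.87, against 9.39, 9.27, 9.24 and 9.10 in dormant 8uvmo-3. Activated CD8bm1 had 7.82, 7.90, 8.18 and 8.13, against 9.84, 10.00, 9.30 and 9.97 in dormant CD8bm1. All activated values thus lay between 6.87 and 8.18, with CD8bm1 at the top. The mean change was -2.16 ± 0.07 (SE over arrays), 4.47-fold lower (limma adjusted p = 6.78e-25), with an SE of 0.34 over the 5 clone effects and a limma adjusted p of 0.00319 with clone means as the replicates. In sAg3 alone the difference was -0.95 ± 0.16 (adjusted p = 4.58e-06), short of the fold minimum.

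Gpr15, whose ligand in mouse is the product of 2610528A11Rik, was near background in sAg1 and CD8bm1. In activated sAg1 its log2 values were 5.52, 5.67, 5.29 and 5.64, against 5.58, 5.80 and 5.62 in dormant sAg1. In activated CD8bm1 they were 5.76, 5.37, 5.73 and 5.83, against 5.60, 5.69, 5.62 and 5.61 in dormant CD8bm1. States overlapped in both clones on this scale. In activated sAg3 the values were 6.71, 6.84, 6.53 and 6.70, against 8.02, 7.98 and 7.86 in dormant sAg3. In activated 8uvmo-2 they were 8.68, 8.19, 7.97 and 8.35, against 11.38, 11.40, 11.11 and 11.06 in dormant 8uvmo-2. In activated 8uvmo-3 they were 6.63, 6.20, 6.70 and 5.95, against 8.99, 8.84, 9.02 and 8.81 in dormant 8uvmo-3. These 3 clones separated fully, and 8uvmo-2 alone stayed above 7 when activated. Relative to array medians Gpr15 fell by 1.77 ± 0.06 on the log2 scale (SE over arrays; limma adjusted p = 2.84e-23), from differences of -3.34 in 8uvmo-2 to -0.37 in CD8bm1. The SE over the 5 clone effects was 0.60, and limma with clone means as the replicates gave an adjusted p of 0.0233. On the deposited values the mean difference was -1.37 and Gpr15 was not called, since CD8bm1 gave 0.04.

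Gpr183, the receptor for the oxysterol 7α,25-dihydroxycholesterol, passed the test for single clones in 8uvmo-2 and 8uvmo-3. Activated 8uvmo-2 gave log2 values of 7.88, 7.57, 8.01 and 7.74, against 10.14, 9.79, 10.04 and 9.46 in dormant 8uvmo-2. Activated 8uvmo-3 gave 9.68, 9.31, 9.45 and 9.11, against 10.82, 10.76, 10.77 and 10.74 in dormant 8uvmo-3. In both clones every activated array was lower. Activated sAg1 gave 9.01, 8.85, 9.37 and 8.87, against 9.76, 9.48 and 9.61 in dormant sAg1. Activated sAg3 gave 6.84, 6.84, 6.93 and 6.92, against 6.31, 6.62 and 6.59 in dormant sAg3. Activated CD8bm1 gave 7.38, 7.12, 7.80 and 7.51, against 7.09, 7.28, 6.83 and 7.72 in dormant CD8bm1. The sAg1 arrays did not overlap, activated sAg3 was the higher state as deposited, and CD8bm1 overlapped. The mean change was -1.09 ± 0.08 (SE over arrays; limma adjusted p = 3.83e-15), with an SE of 0.46 over the 5 clone effects and a limma adjusted p of 0.0445 with clone means as the replicates. The effect was -2.46 in 8uvmo-2, -1.77 in 8uvmo-3, -0.999 (just under the fold minimum, not called) in sAg1, -0.19 in CD8bm1 and -0.04 in sAg3. As deposited, the mean difference was -0.69, the differences in sAg3 (0.38) and CD8bm1 (0.22) were positive, and Gpr183 was not called. Without clone 8uvmo-2 the mean was -0.75 and without 8uvmo-3 it was -0.92, neither called; without 1 array, dormant sAg3 replicate 2, the call was also lost, with all single-array removals giving means from -1.12 to -1.05.

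Cxcr6, the receptor for CXCL16, split by clone. Its log2 values in activated 8uvmo-3 were 12.06, 11.57, 11.83 and 11.66, against 12.67, 12.81, 12.80 and 12.73 in dormant 8uvmo-3. In activated sAg1 they were 10.55, 10.50, 10.69 and 10.30, against 11.58, 11.76 and 11.64 in dormant sAg1. In activated 8uvmo-2 they were 6.79, 6.85, 6.25 and 6.70, against 8.26, 8.98, 7.65 and 8.24 in dormant 8uvmo-2. The 3 clones with dormant means above 7 had lower values when activated, with differences of -1.36 ± 0.18, -1.56 ± 0.20 and -2.03 ± 0.18 (SE), in that order, all called; as deposited, the 8uvmo-3 difference was -0.97 and not called. In activated sAg3 the values were 6.16, 6.63, 6.15 and 6.14, against 5.52, 5.32 and 5.81 in dormant sAg3. In activated CD8bm1 they were 5.67, 6.16, 5.94 and 5.97, against 5.14, 5.51, 5.63 and 4.78 in dormant CD8bm1. These 2 clones stayed below 7 in both states. Over all 5 clones the difference was -0.88 ± 0.09 (adjusted p = 2.41e-11). It did not pass, being under the fold minimum, and directions also differed.

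Ccr4, the receptor for CCL17 and CCL22, was called higher in 1 clone. In activated 8uvmo-2 its log2 values were 9.05, 9.23, 9.73 and 9.09, against 6.71, 6.33, 6.30 and 6.46 in dormant 8uvmo-2, a difference of 2.43 ± 0.27 (SE; adjusted p = 1.31e-09). Dormant 8uvmo-2 lay below 7, so the fold is a lower estimate. Activated 8uvmo-3 had 7.09, 9.15, 8.14 and 9.03, against 8.74, 8.95, 9.06 and 9.02 in dormant 8uvmo-3. The activated 8uvmo-3 arrays were spread over 2 log2 units (SD 0.95) and overlapped the dormant ones. The 8uvmo-3 difference was -0.975 ± 0.27 (limma adjusted p = 0.00194), just under the fold minimum and opposite in sign to 8uvmo-2. As deposited it was -0.59. Activated sAg1 had 9.80, 9.80, 9.49 and 9.64, against 8.80, 8.96 and 8.92 in dormant sAg1. Activated sAg3 had 6.47, 6.78, 6.61 and 6.43, against 6.95, 6.73 and 6.57 in dormant sAg3. Activated CD8bm1 had 7.95, 8.09, 8.28 and 8.26, against 8.18, 8.02, 6.97 and 8.34 in dormant CD8bm1. The sAg1 arrays separated upwards without passing the test (0.38 ± 0.29; adjusted p = 0.257), and sAg3 stayed below 7. The mean over clones was 0.22 ± 0.12 (adjusted p = 0.0977). As deposited the mean was 0.62 (limma adjusted p = 2.04e-05) and the sAg1 difference 0.79 (limma adjusted p = 0.0134), neither called.

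Neither Ccr7 nor Ccr8 was called for activation. Ccr7, the lymph node entry receptor, had log2 values of 9.69, 10.79, 10.28 and 10.46 in activated 8uvmo-3, against 9.50, 9.99, 10.20 and 10.27 in dormant 8uvmo-3. In the other 4 clones it ran from 7.12 to 9.26 in activated arrays and from 6.70 to 8.54 in dormant arrays. Its highest level was thus in 8uvmo-3 in both states. The mean difference was 0.27 ± 0.10 (adjusted p = 0.0098) for Ccr7 and 0.30 ± 0.06 (adjusted p = 3.90e-05) for Ccr8, both short of the fold minimum. The deposited values gave 0.67 for Ccr7 and 0.70 for Ccr8, also short of it. As deposited, 2 single-clone differences passed, Ccr7 in CD8bm1 (1.16; 4.59% of all tested called higher) and Ccr8 in sAg3 (1.06; 4.09%).

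**Figure D2:**
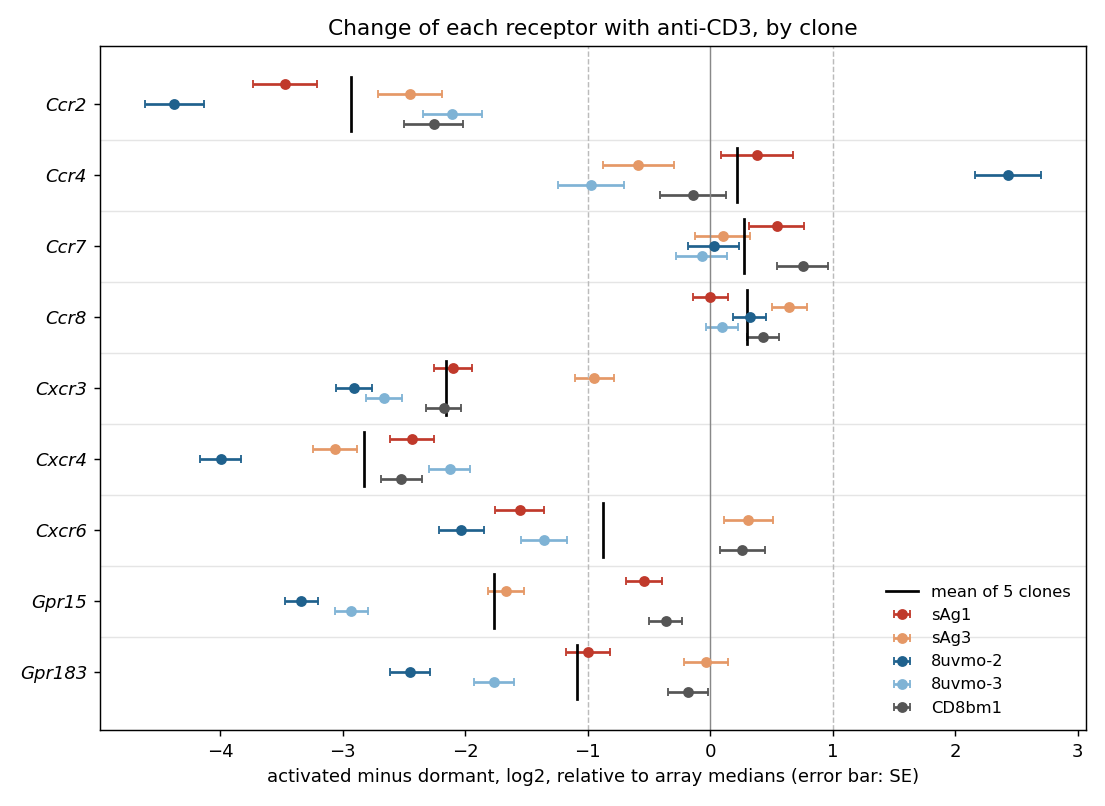
Activated minus dormant log2 difference relative to array medians (horizontal axis) for each receptor and clone, with SE as error bars; black lines are means of the 5 clones and dashed lines mark differences of -1 and 1. Ccr2 and Cxcr4 lie left of -2 in all clones, and Ccr4 in 8uvmo-2 stands alone at 2.43.

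The size of the activation change differed between clones for most receptors. An F test of the clone-by-state terms in limma called 7 of 9 receptors (14.3% of all tested probe sets), all except Ccr7 (range of effects 0.83; adjusted p = 0.0754) and Ccr8 (range 0.65; adjusted p = 0.041). By clone, 4 of 9 receptors fell in sAg1 (8.06% of all tested called lower), 3 in sAg3 (3.75%) and 3 in CD8bm1 (6.95%). The 2 IL13-negative clones had 6 of 9 lower each, 8uvmo-2 with 9.2% and 8uvmo-3 with 8.13% of all tested. Ccr4 rose in 8uvmo-2 (2.5% of all tested called higher). No receptor was called higher in sAg1 (2.27%), sAg3 (0.649%), 8uvmo-3 (1.96%) or CD8bm1 (0.948%). In arrays, 4 receptors, Ccr2, Cxcr3, Cxcr4 and Gpr15, had no overlap of activated and dormant values in any clone, all lower relative to array medians (17.9% of all tested). As deposited, the Gpr15 arrays overlapped in sAg1 and CD8bm1, where they were near background in both states.

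Between phenotypes, the activation effect of 3 receptors was less negative in the IL13+ clones (1.32% of all tested called with a positive difference, 0.589% with a negative one). The IL13+ minus IL13-negative difference of activation effects was 2.03 ± 0.14 for Gpr15 (adjusted p = 5.03e-13), 1.60 ± 0.17 for Gpr183 (adjusted p = 7.18e-09) and 1.26 ± 0.15 for Cxcr3 (adjusted p = 7.55e-08). Gpr15 averaged 5.67 in dormant sAg1 and Gpr183 6.51 in dormant sAg3, both below 7, where a fall may be understated. Gpr15 in sAg1 changed by -0.54 ± 0.15 relative to array medians and by -0.14 as deposited. Without sAg3 the Cxcr3 difference was 0.69, under the fold minimum. Cxcr6 had a difference of 1.07 ± 0.19 (adjusted p = 6.73e-05), but its clones did not separate by phenotype. With clone means as the replicates, 0 receptors were called by limma (2 at an unadjusted p under 0.05).

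Ccr8 set the IL13+ clones apart in both states. Its ligand CCL1 is made by activated T cells, and the receptor is known from type 2 T cells and regulatory T cells. Activated sAg1 had log2 values of 9.20, 9.31, 9.69 and 8.92, and activated sAg3 had 8.24, 8.18, 8.08 and 8.11. Activated 8uvmo-2 had 5.67, 5.66, 5.67 and 5.22, activated 8uvmo-3 had 5.21, 5.52, 5.21 and 5.27 and activated CD8bm1 had 5.39, 5.63, 5.79 and 5.86. Every activated IL13+ array lay more than 2 log2 units above every other activated array. Dormant sAg1 had 9.01, 8.72 and 8.89, and dormant sAg3 had 7.33, 7.06 and 6.90. Dormant 8uvmo-2 had 4.82, 4.71, 4.97 and 4.85, dormant 8uvmo-3 had 4.85, 4.93, 4.66 and 4.86 and dormant CD8bm1 had 4.89, 4.70, 5.06 and 4.66. The 3 other clones stayed below 7 in both states. IL13+ minus IL13-negative was 3.29 ± 0.09 in activated arrays (adjusted p = 1.55e-25) and 3.15 ± 0.10 in dormant arrays (adjusted p = 3.01e-24), both lower estimates. Within the IL13+ pair, sAg1 exceeded sAg3 by 1.13 ± 0.13 in activated and 1.78 ± 0.15 in dormant arrays.

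Ccr8 was the 1 receptor of 9 called in activated arrays (0.666% of all tested called higher, 1.08% lower). In dormant arrays 1 of 9 was higher (1.02%) and 2 of 9 were lower (2.33%). The lower ones in IL13+ clones were Gpr15, with a difference of -3.27 ± 0.10 (adjusted p = 4.64e-24), and Gpr183, with -2.25 ± 0.12 (adjusted p = 1.42e-17). Both are lower estimates of the size, since dormant sAg1 averaged 5.67 for Gpr15 and dormant sAg3 6.51 for Gpr183. Dormant Gpr15 ran from 5.58 to 8.02 in IL13+ arrays and from 8.81 to 11.40 in IL13-negative arrays, without overlap. Dormant Gpr183 ran from 6.31 to 9.76 in IL13+ arrays and from 9.46 to 10.82 in IL13-negative arrays. Clone means stood apart, but the Gpr183 arrays of sAg1 and 8uvmo-2 overlapped, with sAg3 lowest. Without sAg3 the Gpr183 difference was -0.70, under the fold minimum. In activated arrays the Gpr15 difference was -1.22 ± 0.09, and sAg3 (6.70) averaged above 8uvmo-3 (6.37), so it was not called.

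The other 6 receptors were called in neither state. Cxcr4 in dormant arrays ran from 9.79 to 10.52 in IL13+ and from 10.65 to 11.52 in IL13-negative arrays, apart but with a difference of -0.88 ± 0.12, under the fold minimum. Cxcr6 had -1.91 ± 0.14 in dormant arrays, with sAg1 and 8uvmo-3 high and sAg3 low; without sAg3 the difference was 1.14. Ccr7 had -1.19 ± 0.16 in dormant arrays and 0.25 without 8uvmo-3. Cxcr3 had -1.08 ± 0.11 in dormant arrays, and was not called, since sAg1 (9.27) averaged above 8uvmo-3 (9.25); leaving out 1 array, dormant 8uvmo-3 replicate 4 or dormant sAg1 replicate 2, turned that order and gave a call. Ccr2 had -0.98 ± 0.18 and Ccr4 0.13 ± 0.20 in dormant arrays. With clone means as replicates, limma called 0 of the 9 receptors in either state (37 probe sets in dormant and 6 in activated arrays had an adjusted p under 0.05), with 2 receptors in dormant and 1 in activated arrays at an unadjusted p under 0.05.

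**Figure D3:**
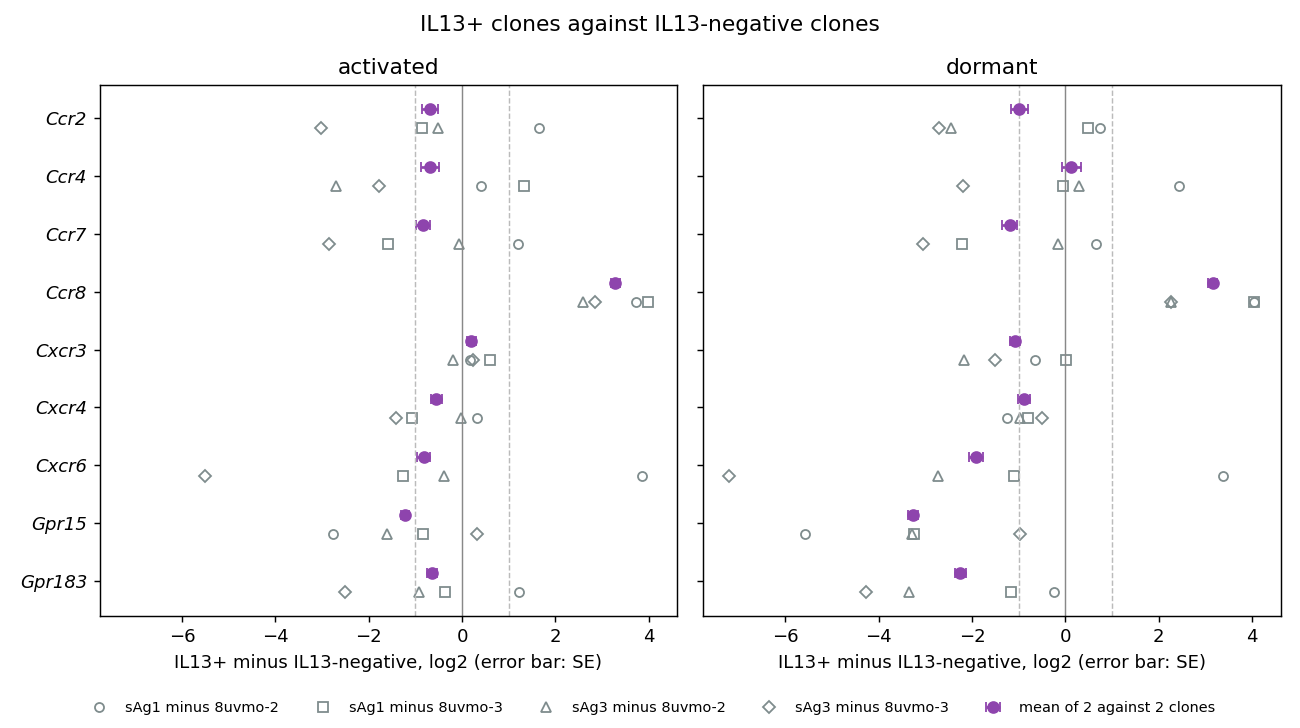
IL13+ minus IL13-negative log2 difference (horizontal axis, deposited values) for each receptor in activated (left) and dormant (right) arrays; filled points are the contrast with its SE, open symbols the 4 clone pairs, and dashed lines mark -1 and 1. All 4 pairs have 1 sign for Ccr8 in both panels, while the Cxcr6 pairs in dormant arrays spread from -7.20 to 3.38.

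Set against the alloreactive clone CD8bm1, the IL13-negative clones averaged higher in Cxcr6, Gpr15 and Gpr183 in both states. In activated arrays these 3 of 9 receptors were called higher (2.6% of all tested called higher), by 3.28 ± 0.16, 1.66 ± 0.12 and 1.14 ± 0.13. Clone by clone, each passed in 1 of the 2 clones only. In activated 8uvmo-2 the difference from CD8bm1 was 0.71 for Cxcr6 (both means below 7) and 0.35 for Gpr183 (adjusted p = 0.0928, arrays overlapping). In activated 8uvmo-3 it was 0.70 for Gpr15 (both means below 7). In dormant arrays 4 of 9 were higher (4.02%), Cxcr6 by 5.25 ± 0.16, Gpr15 by 4.45 ± 0.12, Gpr183 by 3.09 ± 0.13 and Ccr2 by 1.75 ± 0.20. Dormant CD8bm1 averaged 5.27 for Cxcr6 and 5.63 for Gpr15, and activated CD8bm1 5.94 and 5.67, so the Cxcr6 and Gpr15 differences from it are lower estimates. None was called lower in activated (2.12%) or dormant arrays (3.35%). The IL13+ clones had 2 of 9 higher in activated arrays (2.02%), Ccr8 by 3.05 ± 0.11 and Cxcr6 by 2.46 ± 0.16, and none lower (1.65%). In dormant arrays 3 of 9 were higher (3.14%), Ccr8 by 3.16 ± 0.12, Cxcr6 by 3.34 ± 0.17 and Gpr15 by 1.18 ± 0.12, and 1 was lower (4.11%), Cxcr3 with a difference of -1.27 ± 0.13. Within the IL13+ pair Cxcr6 was above 7 in sAg1, while sAg3 and CD8bm1 both lay below 7. For dormant Gpr15 the difference from CD8bm1 was 2.32 in sAg3 and 0.04 in sAg1 (adjusted p = 0.875; both means below 7). Dormant Cxcr3 averaged 7.74 in sAg3 and 9.27 in sAg1, against 9.78 in CD8bm1. CD8bm1 exceeded sAg1 by 0.51 ± 0.15, under the fold minimum, and their arrays overlapped. The Ccr8 differences are lower estimates, since CD8bm1 lay below 7 in both states. Both phenotypes were set against the same CD8bm1 arrays.

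The clones differed from one another in these receptors in most pairs. Over the 10 pairs of clones, 53 of 90 receptor comparisons were called in activated arrays (4.63% of all tested) and 55 of 90 in dormant arrays (7.41%). The highest minus the lowest clone mean exceeded the 90th percentile of all tested probe sets for 8 of 9 receptors in each state, that is 1.18 in activated and 1.62 in dormant arrays. Because the receptors were chosen with earlier results of these data known, these counts describe them and are no test of unusual variation. The lowest clone mean lay below 7 for 7 of 9 receptors in activated and 6 of 9 in dormant arrays, so these ranges are lower estimates. Among them is Cxcr6, with a measured range of 5.85 in activated and 7.49 in dormant arrays and 9 of 10 dormant pairs called. Below the percentile were Cxcr3 in activated arrays (range 1.04) and Cxcr4 in dormant arrays (range 1.26).

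**Figure D4:**
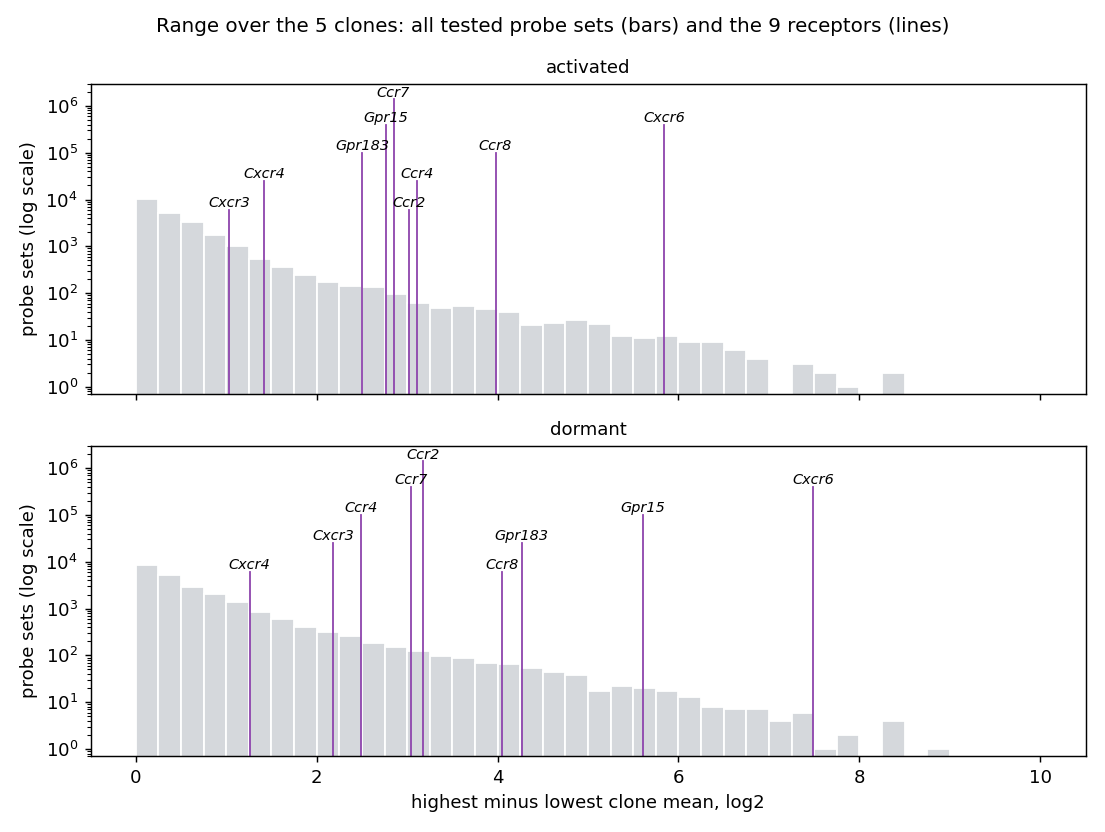
Number of tested probe sets (vertical axis, log scale) by the range of their 5 clone means in log2 units (horizontal axis), for activated (top) and dormant (bottom) arrays; purple lines mark the receptors at heights chosen for legibility. Cxcr6 is drawn farthest right in both panels, at 5.85 and 7.49, both lower estimates because CD8bm1 lay below 7.

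The order of the clones was as follows. For Cxcr6 it was 8uvmo-3, sAg1, 8uvmo-2, sAg3 and CD8bm1 in both states, where sAg3 and CD8bm1 did not differ beyond their spread (0.34 ± 0.19 in activated, 0.29 ± 0.20 in dormant arrays), nor did 8uvmo-2 and sAg3 when activated (0.38 ± 0.19; adjusted p = 0.118). Dormant Gpr15 ran 8uvmo-2, 8uvmo-3, sAg3, sAg1 and CD8bm1, the last pair within their spread (0.04 ± 0.14). Dormant Gpr183 ran 8uvmo-3, 8uvmo-2, sAg1, CD8bm1 and sAg3, with 8uvmo-2 and sAg1 within their spread (0.24 ± 0.17; adjusted p = 0.311). Dormant Ccr2 ran sAg1, 8uvmo-3, 8uvmo-2, CD8bm1 and sAg3, and its first 3 were neighbours without a difference past the test (0.48 ± 0.25 and 0.26 ± 0.23). When activated, 8uvmo-3 led for Ccr2, Ccr7, Cxcr4, Cxcr6 and Gpr183, though its lead over sAg1 in Gpr183 was 0.36 ± 0.15 (adjusted p = 0.0947). For Ccr4 the leading pair was sAg1 and 8uvmo-2 when activated (0.41 ± 0.27) and 8uvmo-3 and sAg1 when dormant (0.05 ± 0.29), neither pair past the test.

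Likeness of pattern was described by Pearson's r over the 10 group means, whose arrays share clone, state and processing. Among the receptors, Cxcr6 and Gpr183 were most alike (r = 0.898), followed by Ccr2 and Cxcr4 (r = 0.834), and Ccr8 and Gpr15 were least alike (r = -0.484). Ccr2 and Cxcr6 had r = 0.673. Among 4427 other probe sets that vary between groups, the pattern closest to Cxcr6 was that of Sema4b (r = 0.982), to Cxcr3 that of Pstk (r = 0.975), to Cxcr4 that of Heatr5b (r = 0.971) and to Ccr2 that of Nsmce4a (r = 0.968). Gpr183 was closest to Sdr16c5 (r = 0.960), Itgb7, an integrin of gut-homing lymphocytes (r = 0.960), and Rora (r = 0.954). Closest to Ccr8 was Mtmr7 (r = 0.960), to Gpr15 Prune2 (r = 0.949), to Ccr7 Mknk2 (r = 0.932) and to Ccr4 Zfp36l1 (r = 0.902).

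Among other chemotactic receptors, S1pr4 and Ltb4r1 fell and S1pr3 rose with activation. Of 26 measured, 14 averaged below 7 in all 10 groups. Of all 23410 tested probe sets, 13600 averaged at least 7 in some group. The 9 receptors above all did, but they were chosen with earlier results of these data known. With activation 1 of the 26 was called higher (1.06% of all tested) and 2 lower (5.56% of all tested). On the deposited values 2 were higher, S1pr3 and C5ar1 (4.56%), and 1 was lower, S1pr4 (1.64%). S1pr4, a sphingosine-1-phosphate receptor of lymphocytes, fell by 1.80 ± 0.06, and Ltb4r1, the leukotriene B4 receptor, fell by 1.07 ± 0.07. S1pr3, another sphingosine-1-phosphate receptor, rose by 1.39 ± 0.07. Their median difference was 0.02. In dormant arrays 1 of 26 was higher in IL13+ than in IL13-negative clones (1.02% of all tested), S1pr3 by 1.3 ± 0.11. Another 3 were lower (2.33% of all tested), and the median difference was -0.03. S1pr1, which lets lymphocytes leave lymphoid organs, had a difference of -4.21 ± 0.13, with means of 6.55 and 5.95 in sAg1 and sAg3, against 10.54 and 10.39 in 8uvmo-2 and 8uvmo-3. Ptgdr2, the prostaglandin D2 receptor, had -1.09 ± 0.10 and Ccrl2 had -1.06 ± 0.09. In activated arrays 1 of 26, Ltb4r1, was higher by 1.42 ± 0.11 (0.666% of all tested). By limma with the fold minimum 0 were lower (1.08% of all tested), and without it 7 were lower at an adjusted p under 0.05. The activation effect differed between phenotypes for 3 of 26, S1pr1 (3.57 ± 0.17), Ltb4r1 (1.46 ± 0.15) and Ptgdr2 (1.01 ± 0.13). Over all tested probe sets 1.32% were called with a positive difference and 0.589% with a negative one.

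Of 17 measured ligand or ligand-enzyme genes, 11 averaged below 7 in all 10 groups. With activation 2 rose (1.06% of all tested; 4 on the deposited values, with Ccl12 and Ccl17, against 4.56%) and 0 fell (5 were lower at an adjusted p under 0.05 in limma, without the fold minimum). Ccl1, whose product binds CCR8, averaged 13.59, 8.72, 13.00, 13.64 and 8.79 in activated sAg1, sAg3, 8uvmo-2, 8uvmo-3 and CD8bm1, against 5.55 to 5.99 in dormant groups. It was thus high in activated clones with and without Ccr8. Cxcl10, whose product binds CXCR3, rose by 1.06 ± 0.09, with activated means of 6.34 to 7.09 against 5.15 to 5.27 in dormant groups. No ligand gene was called between phenotypes in either state. By limma at an adjusted p under 0.05 without the fold minimum, 5 were higher and 2 lower in activated arrays. In dormant arrays 4 were higher and 1 lower at that threshold. With the fold minimum, 0.666% of all tested were called higher and 1.08% lower in activated arrays, and 1.02% and 2.33% in dormant arrays. Ccl12, whose product binds CCR2 in mouse, averaged 10.16 in activated and 6.56 in dormant CD8bm1, against 5.24 to 6.59 in the other activated groups and 4.73 to 5.27 in the other dormant groups. Cxcl16, Ccl2, Ccl22, Cxcl12 and Ch25h, which encodes an enzyme that makes the precursor of the GPR183 ligand, averaged below 7 in all 10 groups.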

How the data were processed

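The values are log2 expression summaries deposited by the authors for 38 Affymetrix arrays, made from 100 ng of total RNA with the WT Plus kit per the labels' protocols. The submitters' processing notes list Partek and RMA with no version, and the genome build is not given in the sources used here. Of 35556 probe sets, 12146 carry no gene name in the platform annotation, and 23410 were tested (21789 with 1 symbol, 1621 with several). limma 3.58.1 in R 4.3.3 fitted 10 group means with a variance trend, and Benjamini-Hochberg adjustment ran over all tested probe sets. Activation contrasts used values minus each array's median, and other contrasts used deposited values. A phenotype call also needed the clone means of the sides to stand apart. The fits were tested on simulated data. All 9 receptors are named, up to 4 called genes of each further list per comparison, described ligands, and the closest patterns among probe sets with an SD of group means of at least 0.5. Members and lists were chosen with earlier results of these data known. As a check of pairing by replicate number, deviations of same-numbered activated and dormant arrays correlated from -0.24 to 0.27 over 18 pairs, with 7 pairs over 0.1, among them all 4 of 8uvmo-2 (0.11 to 0.24). Alternatives changed scaling, normalization, filters, the replicate block, arrays and clones.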

Additional observations from a re-analysis of the deposited data

Results flagged for a closer look

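Some single arrays lay far from the rest of their group. Ccr2 in dormant CD8bm1 had 8.31 in replicate 3, against 9.50 to 9.69 in the other 3 arrays. Ccr8 in activated 8uvmo-2 had 5.22 in replicate 4, against 5.66 to 5.67 in the others, all near background. Cxcr6 in activated sAg3 had 6.63 in replicate 2, against 6.14 to 6.16 in the others. Of 72 groups of 4 arrays examined, 3 stood out, and chance gives about 5%.

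The activation effect differed between the phenotypes by 1.26 for Cxcr3, 2.03 for Gpr15 and 1.60 for Gpr183 (IL13+ minus IL13-negative, limma interaction contrast). Over the 5 clones, the range of activation effects was 2.27 for Ccr2, 3.40 for Ccr4, 1.96 for Cxcr3, 1.87 for Cxcr4, 2.34 for Cxcr6, 2.97 for Gpr15 and 2.42 for Gpr183, each past the F test.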

How the results depend on the processing

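Of 16 settings besides single-array removals, all rows of the file, array weights, no variance trend, the filter on dim probe sets (13600 left) and removal of either pair of dormant 8uvmo-2 arrays moved none of the 45 receptor results across its threshold or in sign. Nor did removal of CD8bm1, run for 36 of them. The replicate block did not either, with 5 receptors called for activation, 7 in 8uvmo-2, whose same-numbered arrays deviated together, and 108 clone-pair comparisons. As deposited, 3 receptors were called for the mean activation effect. Quantile normalization gave Gpr183 -0.85, not called. Without a fold minimum, 7 receptors passed in sAg1, 5 in sAg3 and 6 in CD8bm1 for activation. So did 14730, 14070 and 15364 of the 23410 tested probe sets, in that order. In activated arrays 4 receptors passed for IL13+ and 5 for IL13-negative clones against CD8bm1, beside 5954 and 7117 of all tested. With clone means as replicates, 0 receptors passed between phenotypes for the activation effect, in dormant arrays or in activated arrays (limma, 2, 2 and 1 at an unadjusted p under 0.05). For activation 5 receptors passed, where 15256 of all tested probe sets had a limma adjusted p under 0.05.

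Removing a clone of a phenotype left 1 clone on its side, whose value still had to lie outside both clones of the other side; for this reason Cxcr6 was not called without sAg3 in either state or without 8uvmo-3 in activated arrays. With all clones, 784 of the 23410 tested probe sets were called in dormant arrays, 409 in activated arrays and 446 for the activation effect. Without sAg1, 7 receptors were called in dormant and 6 in activated arrays (1541 and 1174 of all tested). Cxcr4 turned to -0.0042 for the activation effect and Ccr4 to -0.95 in dormant arrays. Without sAg3, 2 receptors were called in activated arrays (529 of all tested). Values turned for Ccr2 (-0.23) and Ccr8 (-0.21) in the activation effect, and for Ccr2 (0.61) and Cxcr6 (1.14) in dormant arrays. In activated arrays they turned for Ccr2 (0.40), Ccr4 (0.87), Cxcr6 (1.3) and Gpr183 (0.43). Without 8uvmo-2, 6 receptors were called in either state (1232 of all tested in dormant and 752 in activated arrays). Values turned for Ccr4 in the mean activation (-0.33) and in dormant arrays (-1.12). In the activation effect they turned for Ccr2 (-0.85), Ccr4 (0.87) and Cxcr4 (-0.62). Without 8uvmo-3, 7 receptors were called for the activation effect (780 of all tested), 6 in dormant (1124) and 2 in activated arrays (600). Values turned for Ccr7 (0.25) and Cxcr6 (0.32) in dormant arrays. In activated arrays they turned for Ccr2 (0.57), Ccr7 (0.56), Cxcr3 (-0.016), Cxcr4 (0.15), Cxcr6 (1.74) and Gpr183 (0.15). The cause was not tested.

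Leaving out 1 array at a time gave 4 to 5 receptors called for mean activation, 4 to 5 in sAg1, 3 to 4 in sAg3, 7 in 8uvmo-2, 6 to 7 in 8uvmo-3 and 3 in CD8bm1. It gave 3 for the activation effect between phenotypes, 3 to 4 in dormant and 1 in activated arrays, 7 to 8 by the F test (Ccr7 joined without dormant CD8bm1 replicate 3), and 106 to 109 clone pairs. Against CD8bm1 it gave 3 to 4 (IL13+) and 4 to 5 (IL13-negative) in dormant arrays, and 2 and 3 in activated arrays. Values below 7 limit what can be seen of Ccr8 and Gpr15 in several clones.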

Other observations

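Among 32 measured genes that carry or damp chemotactic signals, 3 rose (1.06% of all tested probe sets were called higher) and 4 fell (5.56% were called lower) with activation, with a median difference of -0.44 against -0.05 over all tested probe sets. On the deposited values 3 were called higher and 2 lower, Rasgrp2 and Gng2. Rgs16, which shortens G protein signals, rose by 4.68 ± 0.06 (SE), with means of 12.51 to 13.72 in activated groups and 6.80 to 10.36 in dormant groups. Rgs2, of the same family, rose by 2.23 ± 0.10. Rasgrp2, which activates Rap1 for integrin adhesion, fell by 2.05 ± 0.07, and the G protein subunit gene Gng2 fell by 1.91 ± 0.06. In dormant arrays 3 genes were lower in IL13+ than in IL13-negative clones (2.33% of all tested). The differences were -2.37 ± 0.15 for Rgs18, -2.31 ± 0.16 for Rgs2 and -1.16 ± 0.11 for Rasgrp2. By limma with the fold minimum 0 were higher (1.02% of all tested), and without it 7 were higher at an adjusted p under 0.05. In activated arrays the difference was -2.36 ± 0.14 for Rgs18 and -1.74 ± 0.15 for Rgs2, both called lower (1.08% of all tested). Rgs18 in sAg1 averaged 5.27 in activated and 5.56 in dormant arrays, below 7, while sAg3 averaged 8.97 and 9.30.

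Of 13 transcription factors known to act on such receptor genes, 1, Lef1, fell with activation by 1.3 ± 0.07 (5.56% of all tested were called lower) and 0 rose by limma with the fold minimum (3 at an adjusted p under 0.05). On the deposited values the Lef1 difference was -0.90, under the fold minimum, and 0 factors were called. In activated arrays Gata3, the type 2 factor, was higher in IL13+ than in IL13-negative clones by 1.10 ± 0.05, with means of 9.69 and 10.38 in sAg1 and sAg3, against 9.06 and 8.80 in 8uvmo-2 and 8uvmo-3. Ahr, the aryl hydrocarbon receptor, was lower in IL13+ clones, with a difference of -2.04 ± 0.07, with means of 6.73 and 6.89 in sAg1 and sAg3, against 9.26 and 8.44 in 8uvmo-2 and 8uvmo-3. No factor was called between phenotypes in dormant arrays by limma, where 5 were higher and 5 lower at an adjusted p under 0.05 without the fold minimum.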
